A study of Mus musculus with 26 samples.

Results

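Major histocompatibility complex (MHC) class I presentation was followed in mouse brain through 8 genes: the heavy chains H2-D1 and H2-K1, their light chain B2m, the peptide transporter subunits Tap1 and Tap2, the loading factor Tapbp, and the immunoproteasome subunits Psmb8 and Psmb9. All probe sets annotated to these genes alone were taken, which gave 25 of the 45101 probe sets on the array and 8 of the 18194 genes named on it. Of the 25 probe sets, 20 passed the filter on low signal, a mean log2 value of at least 4.33 over all arrays, among 31571 probe sets that passed it. Tissue was entorhinal cortex and hippocampus of mice, dissected 4 weeks after a lentivirus had been given into the entorhinal cortex. Each region had 4 arrays from mice carrying an amyloid precursor protein (APP) transgene that received the virus for BDNF (brain-derived neurotrophic factor), a growth factor that neurons secrete. A further 4 arrays per region came from APP transgenic mice that received a virus for green fluorescent protein (GFP), 2 from non-transgenic mice with the GFP virus, and 3 from non-transgenic mice with a sham lesion and no virus named in the labels. There is no transgenic group without a virus, and no non-transgenic group with BDNF. The labels used here do not give the transgenic line, its promoter, the age in months, the sex or the virus dose, and they do not say which entorhinal and hippocampal arrays came from the same mouse. They call the replicates biological.

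Class I molecules carry short peptides from inside the cell to its surface, where CD8 T cells read them. Proteasomes cut the peptides, and in inflamed tissue the inducible subunits Psmb8 and Psmb9 replace their constitutive counterparts. The transporter formed by Tap1 and Tap2 moves peptides into the endoplasmic reticulum, where Tapbp (tapasin) bridges it to a heavy chain paired with B2m. Interferons induce most of this machinery, and in the healthy brain its levels are low compared with those of lymphoid organs. The heavy chain genes differ strongly between mouse strains, so a probe designed on one allele can miss another.

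Of the 8 genes, 7 had a promoter window in the RefSeq table of assembly GRCm38.p6, running from 250 bases before to 50 bases after an annotated start. The windows of both heavy chains and of B2m are shown because heavy chain and light chain form the class I molecule itself and their levels ran in parallel between arrays. Capitals mark matches to GGGATTCCC, the core of the kappa B element in class I promoters, and to the interferon-response forms GAANNGAAA and GAAANNGAA, each searched on both strands and chosen after the sequences had been seen. The H2-D1 window lies at chr17:35262844-35263143 on the plus strand, that of H2-K1 at chr17:34000298-34000597 on the minus strand, and that of B2m at chr2:122147437-122147736 on the plus strand.
H2-D1: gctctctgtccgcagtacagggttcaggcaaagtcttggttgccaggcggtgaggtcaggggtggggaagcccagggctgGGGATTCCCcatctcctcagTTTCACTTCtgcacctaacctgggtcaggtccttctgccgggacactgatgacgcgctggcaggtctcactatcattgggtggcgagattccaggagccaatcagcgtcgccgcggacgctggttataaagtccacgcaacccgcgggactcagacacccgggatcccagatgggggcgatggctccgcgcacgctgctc
H2-K1: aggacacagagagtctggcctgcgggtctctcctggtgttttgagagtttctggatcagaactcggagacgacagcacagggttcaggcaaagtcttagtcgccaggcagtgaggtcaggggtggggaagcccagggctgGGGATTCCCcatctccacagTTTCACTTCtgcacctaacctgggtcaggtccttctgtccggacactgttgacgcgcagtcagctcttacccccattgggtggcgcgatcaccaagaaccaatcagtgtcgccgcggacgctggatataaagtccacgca
B2m: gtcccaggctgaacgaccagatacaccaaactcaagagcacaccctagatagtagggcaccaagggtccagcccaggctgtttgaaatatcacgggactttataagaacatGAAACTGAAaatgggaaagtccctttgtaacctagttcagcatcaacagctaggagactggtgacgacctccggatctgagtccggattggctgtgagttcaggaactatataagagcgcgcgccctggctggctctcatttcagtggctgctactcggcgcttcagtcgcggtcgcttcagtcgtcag
The H2-D1 and H2-K1 windows both held GGGATTCCC followed by TTTCACTTC, which reads as a GAANNGAAA match on the other strand. The first base of GGGATTCCC lay at -170 from the annotated H2-D1 start and at -110 from that of H2-K1, for which the table also holds a nearby second start. B2m held GAAACTGAA at -139. Over all 27025 windows of the table, GGGATTCCC occurred in 100 (0.37%), GAANNGAAA in 7.563% and GAAANNGAA in 8.574%. Where both interferon-response forms match, their letters can overlap. Among the 7 members with a window, 2 held GGGATTCCC, the same 2 held GAANNGAAA and 1 held GAAANNGAA, and the windows of the other members held none of these. Tap1 and Psmb9 are neighbours read in opposite directions, with annotated starts 226 bases apart, so that their windows share 275 bases. A match is a description of letters and not a binding site.

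The probe set with the highest mean stands for each gene below. All values are log2 values as deposited, so that 1 unit is a doubling, and levels of different probe sets are not compared. RMA, the procedure that made them, brought all arrays to a common distribution with medians between 5.51 and 5.58. As checks of the labels, the probe set of Thy1 read 13.53 to 13.99 on the 16 transgenic arrays and 12.30 to 12.67 on the 10 non-transgenic arrays, while those of App (13.03 to 13.36) and Bdnf overlapped between the groups of a region. Xist, the X-inactivation RNA of female cells, read 5.38 to 11.01 in the transgenic groups and 10.38 to 10.89 in the non-transgenic ones. Each transgenic group held both low and high arrays, with a lowest value of at most 5.72 and a highest of at least 10.85. Comparisons of transgenic with non-transgenic arrays, injection against sham included, therefore also differ in the mix of Xist levels. Some arrays stood apart for reasons outside class I genes. Oligodendrocyte genes averaged 7.29 on BDNF array 3 of the entorhinal cortex and 7.36 on its non-transgenic GFP array 2, while the rest of that region read 8.20 to 9.24. Choroid plexus genes averaged 9.50 on sham array 1 of the hippocampus, where no other array of the region exceeded 6.62.

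The heavy chains present the peptide. H2-D1 read 12.11, 10.19, 8.60 and 11.01 in the entorhinal cortex of transgenic BDNF mice and 10.88, 10.31, 10.99 and 11.57 in transgenic GFP mice. It read 12.20 and 9.16 in non-transgenic GFP mice, against 8.12, 9.21 and 9.21 in sham mice. All transgenic arrays other than BDNF array 3 were above sham, while that array and non-transgenic GFP array 2 lay within the sham range. In the hippocampus H2-D1 read 11.62, 10.97, 10.21 and 10.09 with BDNF and 10.96, 12.18, 12.21 and 10.29 with GFP in transgenic mice. Non-transgenic GFP mice had 12.49 and 10.86, against 9.64, 9.16 and 9.33 in sham mice. Here all 10 virus-injected arrays were above all 3 sham arrays.

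H2-K1 read 11.66, 9.94, 9.69 and 10.85 in the entorhinal cortex of transgenic BDNF mice and 10.56, 9.87, 10.64 and 12.39 in transgenic GFP mice. Non-transgenic GFP mice had 11.92 and 9.75, against 9.21, 9.88 and 9.55 in sham mice. Within each virus group the arrays spanned values from near the sham range to well above it. In the hippocampus it read 10.87, 10.38, 9.60 and 10.30 with BDNF and 11.66, 11.60, 11.53 and 9.50 with GFP in transgenic mice. It read 12.11 and 11.17 in non-transgenic GFP mice, against 9.91, 9.46 and 10.10 in sham mice. Transgenic GFP array 4 was far below the other arrays of its group and inside the sham range.

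B2m, the invariant light chain without which heavy chains do not reach the surface, read 12.34, 10.96, 11.08 and 11.75 in the entorhinal cortex of transgenic BDNF mice and 11.61, 11.18, 11.63 and 12.66 in transgenic GFP mice. Non-transgenic GFP mice had 12.64 and 11.17, against 10.79, 11.18 and 11.06 in sham mice. The order of the arrays was close to that of H2-K1. In the hippocampus B2m read 11.75, 11.40, 10.67 and 11.35 with BDNF and 12.19, 12.28, 11.95 and 10.50 with GFP in transgenic mice. It read 12.45 and 11.87 in non-transgenic GFP mice, against 10.93, 10.72 and 11.08 in sham mice. Its second probe set spanned 10.41 to 12.44 over the 26 arrays.

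Tap1 and Tap2 form the transporter, and Tapbp joins it to the heavy chain. Tap1 ran from 5.85 to 7.06 in entorhinal BDNF mice, from 5.96 to 8.09 in transgenic GFP mice and over 7.69 and 6.16 in non-transgenic GFP mice, against 5.72 to 5.98 in sham mice. In the hippocampus it ran from 6.17 to 6.55 with BDNF and from 5.95 to 7.53 with GFP in transgenic mice, and it read 8.12 and 6.73 in non-transgenic GFP mice, against 6.14 to 6.35 in sham mice. The hippocampal BDNF arrays thus overlapped with sham, and transgenic GFP array 4 lay below it. Tap2 averaged 6.64 ± 0.47 in entorhinal BDNF mice, 6.82 ± 0.52 in transgenic GFP mice, 6.82 ± 0.84 in non-transgenic GFP mice and 6.22 ± 0.07 in sham mice (SD, n = 4, 4, 2 and 3). Tapbp averaged 8.76 ± 0.30, 8.94 ± 0.39, 8.96 ± 0.69 and 8.56 ± 0.17 in the same groups. Hippocampal means were 6.67 ± 0.20, 7.13 ± 0.31, 7.42 ± 0.77 and 6.65 ± 0.07 for Tap2 and 8.53 ± 0.14, 8.93 ± 0.37, 9.05 ± 0.67 and 8.53 ± 0.03 for Tapbp in that order of groups.

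The immunoproteasome subunits had wider ranges. Psmb9 read 8.34, 6.59, 6.88 and 7.57 in the entorhinal cortex of transgenic BDNF mice and 7.43, 6.86, 7.47 and 9.28 in transgenic GFP mice. It read 9.19 and 6.55 in non-transgenic GFP mice, against 6.05, 6.42 and 6.10 in sham mice. All 10 virus-injected arrays of this region exceeded the 3 sham arrays. In the hippocampus it read 7.53, 6.91, 6.34 and 7.12 with BDNF and 8.18, 8.35, 7.87 and 6.42 with GFP in transgenic mice. It read 9.17 and 7.60 in non-transgenic GFP mice, against 6.25, 6.57 and 6.90 in sham mice. Psmb8 followed the same arrays, from 6.24 to 8.18 with BDNF and 6.64 to 9.01 with GFP in transgenic entorhinal cortex and at 8.69 and 6.16 in non-transgenic GFP mice, against 5.84 to 6.32 in sham mice.

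**Figure D1:**
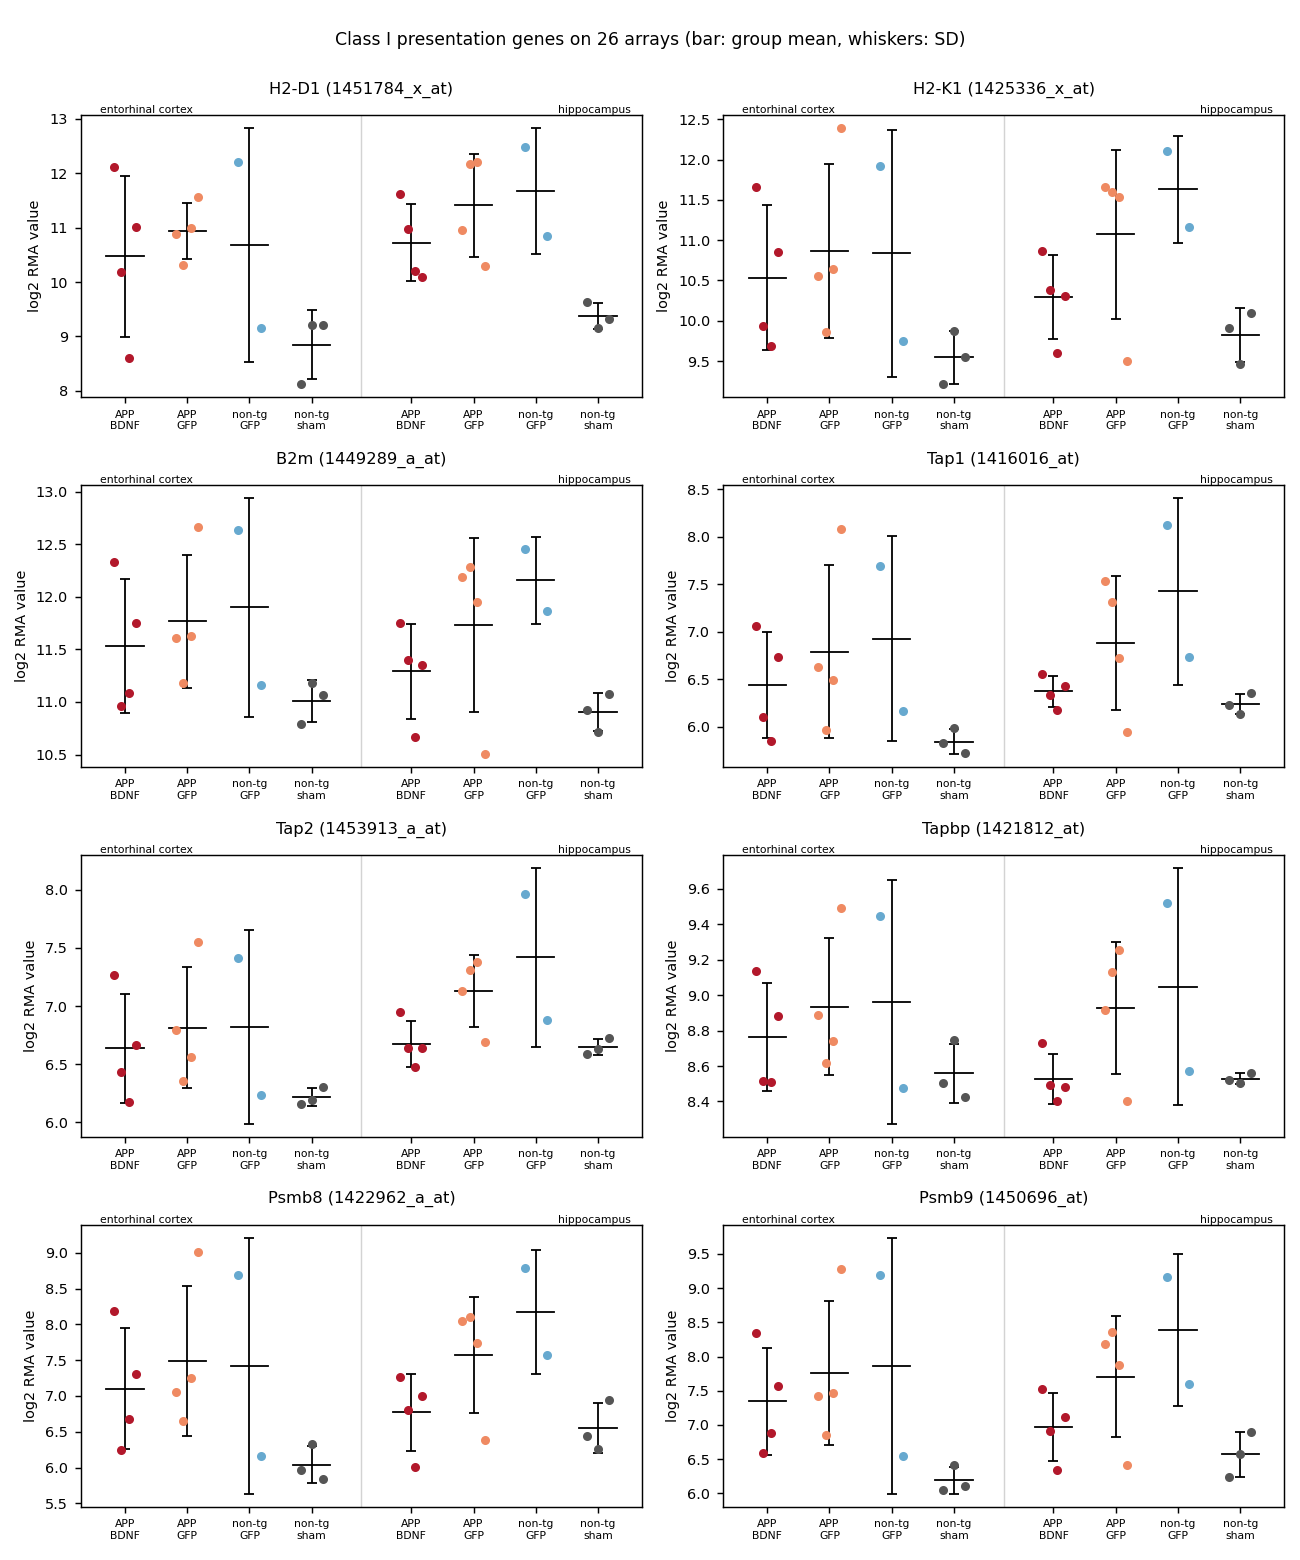
Log2 values of the 8 representative probe sets on each array, in the entorhinal cortex (left of the grey line) and hippocampus (right of it), with a bar for the group mean and whiskers for the SD. Points are arrays, and groups have 4, 4, 2 and 3 arrays from left to right. The sham arrays lie close together at the low end of each panel, while virus-injected groups spread more widely, for example at 9.16 and 12.20 for H2-D1 in entorhinal non-transgenic GFP mice.

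Array by array, the 8 genes ran in parallel. In the entorhinal cortex, transgenic GFP array 4 had the highest value of 7 of the 8 genes and non-transgenic GFP array 1 that of the remaining gene, H2-D1, and it was among the 2 highest in all 8. BDNF array 1 was among the 3 highest in 8 of 8. In the hippocampus, non-transgenic GFP array 1 was highest in 8 of 8 genes and transgenic GFP array 2 among the 3 highest in 8 of 8. The mean of the 8 genes reached 10.005, 9.90 and 9.51 on the 3 highest entorhinal arrays and 10.08 on the highest hippocampal array. It lay between 7.58 and 7.99 on the entorhinal and between 7.93 and 8.25 on the hippocampal sham arrays.

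The spread within groups was large for these genes. The pooled SD within groups ran from 0.37 for Tapbp to 1.19 for H2-D1 in the entorhinal cortex and from 0.32 for Tapbp to 0.79 for H2-D1 in the hippocampus. The median SD over all tested probe sets was 0.156 in the entorhinal cortex and 0.134 in the hippocampus. The SD of Tapbp was larger than that of 95.2% of the tested probe sets in the entorhinal cortex and of 94.5% in the hippocampus, and the share reached 99.7% for H2-D1 in the entorhinal cortex. By the mean of the 8 genes, the entorhinal groups stood in the order non-transgenic GFP (8.93 ± 1.37), transgenic GFP (8.92 ± 0.76), transgenic BDNF (8.60 ± 0.72) and sham (7.78 ± 0.21), and the first 3 differed by less than their SDs. Hippocampal groups stood in the order non-transgenic GFP (9.49 ± 0.83), transgenic GFP (9.05 ± 0.70), transgenic BDNF (8.45 ± 0.38) and sham (8.08 ± 0.16), and each step between neighbours was smaller than the larger of their SDs. In bulk tissue, fewer cells that hold a transcript and less of it per cell cannot be told apart.

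The first comparison asked how tissue given any of the viruses differed from sham tissue, with the mean of the 3 virus-injected groups set against sham. In the entorhinal cortex all 8 genes read higher after injection, by 0.33 (Tapbp) to 1.85 (H2-D1) on the log2 scale, with a median of 1.04 against 0.0020 over all 31571 probe sets. For H2-D1 the difference was 1.85 ± 0.68 (moderated SE), a ratio of 3.60, with an adjusted p of 0.799. No member probe set was called at an adjusted p under 0.05, where 0.0507% of all probe sets were. At an unadjusted p under 0.05, 7 of 20 member probe sets were higher and 0 lower, against 3% of all probe sets higher. Of the 20, 8 belong to H2-D1 and 4 to H2-K1, so they are not separate readings. By representative probe set, 3 of 8 genes passed that level. Groups did not overlap for 1 member probe set, Psmb9 (1.46 ± 0.57, a ratio of 2.76, adjusted p = 0.807), against 0.782% of all probe sets higher without overlap.

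In the hippocampus, which did not receive the virus directly, all 8 genes again read higher on injected than on sham arrays, by 0.31 (Tapbp) to 1.90 (H2-D1), with a median of 0.89 against -0.015 over all probe sets. H2-D1 was higher by 1.90 ± 0.45, a ratio of 3.72, in 10 of 10 injected arrays, and its adjusted p was 0.198, the smallest among the members. H2-K1 was higher by 1.18 ± 0.41, a ratio of 2.26 (adjusted p = 0.373), Psmb9 by 1.11 ± 0.40 (0.393 likewise), Psmb8 by 0.96 ± 0.37 (0.431) and B2m by 0.82 ± 0.32 (0.444). No member probe set was called, where 0.0824% of all probe sets were. At an unadjusted p under 0.05, 13 of 20 were higher, against 4.77% of all probe sets, and 6 of 8 genes by representative probe set. For 4 of 20 the injected arrays did not overlap with sham, against 1.08% of all probe sets higher without overlap. They were H2-D1 1451784_x_at, 1425545_x_at and 1426324_at and H2-K1 1451931_x_at. These same 4 show the second division of arrays described below, whose low class held 3 of 3 sham arrays here. For them, injection and that class cannot be fully told apart. Over all alternative settings and single arrays left out, the adjusted p of H2-D1 ran from 0.0564 with array weights to 0.721 in the hippocampus and from 0.105 to 0.9999 in the entorhinal cortex, and none of 392 values of the 8 genes changed sign.

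The GFP virus can be set against sham within non-transgenic mice, which removes the APP transgene from the comparison but leaves 2 arrays against 3. In each region the divisions of heavy chain probe sets described below were unequal between these groups. On 3 H2-D1 probe sets 2 of 2 GFP arrays were high, against 1 of 3 in sham mice. The low class of the second division held 1 of 2 GFP arrays and 3 of 3 sham arrays. In the entorhinal cortex the 8 genes read higher with GFP by 0.40 (Tapbp) to 1.83 (H2-D1), with a median of 1.19 against -0.0021 over all probe sets. No member was called (0.0127% of all probe sets were). At an unadjusted p under 0.05, 0 of 20 passed (1.23% of all probe sets were higher at that level). GFP arrays did not overlap with sham for 6 of 20, against 9.25% of all probe sets, and for 2 of 8 genes, Tap1 and Psmb9. The other probe sets without overlap were H2-D1 1426324_at and the 3 H2-D1 probe sets that fall into a high and a low range, described below. The representative H2-D1 probe set overlapped. The size of the differences rests on non-transgenic GFP array 1: without it the median was 0.18 and the difference of Tapbp was -0.084. Without array 2 the median was 2.11. In the hippocampus the 8 genes were higher with GFP by 0.52 (Tapbp) to 2.30 (H2-D1, a ratio of 4.93), with a median of 1.44 against -0.029 over all probe sets. All 8 genes and 18 of 20 member probe sets had both GFP arrays above the 3 sham arrays, against 12% of all probe sets. At an unadjusted p under 0.05, 17 of 20 were higher, against 4.64% of all probe sets, and 7 of 8 genes by representative probe set. None was called after adjustment, where 0.0317% of all probe sets were, and the smallest adjusted p was 0.286, for the H2-K1 probe set 1450534_x_at (1.12 ± 0.25). Without transgenic GFP array 4, which enters through the shared estimate of the spread, 1 member probe set was called, and the median of the 8 genes was 0.99 without non-transgenic GFP array 1.

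The second question was whether BDNF in place of GFP changed class I genes in transgenic mice. In the entorhinal cortex all 8 genes averaged lower with BDNF, by 0.17 (Tapbp) to 0.46 (H2-D1), so that H2-D1 averaged 10.48 ± 1.48 with BDNF and 10.94 ± 0.51 with GFP (SD, n = 4 each; difference -0.46 ± 0.73, adjusted p = 0.999). The median of the 8 differences was -0.34 against 0.010 over all probe sets. Groups overlapped for every member probe set, and 0 of 20 were called or passed an unadjusted p under 0.05, where 0% and 4.01% of all probe sets were. The direction rested on transgenic GFP array 4: without it 7 of the 8 differences were positive, from 0.013 for Tapbp to 0.18 for H2-K1, and their median was 0.07. That of H2-D1 was then -0.25, and it was 0.16 without BDNF array 3.

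In the hippocampus the 8 genes also averaged lower with BDNF, by 0.40 (Tapbp) to 0.80 (Psmb8), with a median of -0.60 against 0.00082 over all probe sets. Psmb8 averaged 6.77 ± 0.54 with BDNF and 7.57 ± 0.81 with GFP (difference -0.80 ± 0.39, adjusted p = 0.976). H2-K1 averaged 10.29 ± 0.52 with BDNF and 11.07 ± 1.05 with GFP (-0.79 ± 0.44, adjusted p = 0.976). Tap2 had the smallest unadjusted p of the members, with 6.67 ± 0.20 against 7.13 ± 0.31 (-0.45 ± 0.20, adjusted p = 0.976), and was the only one of 20 member probe sets under 0.05, where 2.59% of all probe sets were lower at that level. No probe set was called, of the members or of all (0%), and no member was free of overlap (1.17% of all probe sets were lower without overlap). The lower direction of the median held without each array in turn, from -0.95 without transgenic GFP array 4 to -0.41 without transgenic GFP array 2. The difference between the regions in this comparison had a median of 0.25 over the 8 genes, entorhinal minus hippocampal, with 0 of 20 called and 0% of all probe sets called. It was 0.017 without entorhinal BDNF array 1 and 0.61 without hippocampal transgenic GFP array 4.

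The third question was whether the APP transgene changed these genes among mice given GFP, with 4 transgenic arrays against 2. In the entorhinal cortex 3 genes averaged higher and 5 lower in transgenic mice, from -0.13 (Tap1) to 0.26 (H2-D1), with a median of -0.017 against 0.0048 over all probe sets. None was called, where 0.00633% of all probe sets were, and none passed an unadjusted p under 0.05, where 2.42% did. The median was -0.98 without non-transgenic GFP array 2 and 0.87 without array 1, so the values of 2 arrays set its sign. In the hippocampus all 8 averaged lower in transgenic mice, by 0.12 (Tapbp) to 0.68 (Psmb9), with a median of -0.49 against 0.017 over all probe sets. None was called (0.00633% of all probe sets were), and 1 of 20 had an unadjusted p under 0.05, where 2.08% of all probe sets were lower at that level. This was the H2-K1 probe set 1450534_x_at, which averaged 5.55 in transgenic and 6.10 in non-transgenic mice. It was also the only one of 20 without overlap, against 3.15% of all probe sets lower without overlap. Without non-transgenic GFP array 1 the median was 0.13. This comparison shares its transgenic arrays with that of BDNF and its non-transgenic arrays with that of GFP against sham.

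**Figure D2:**
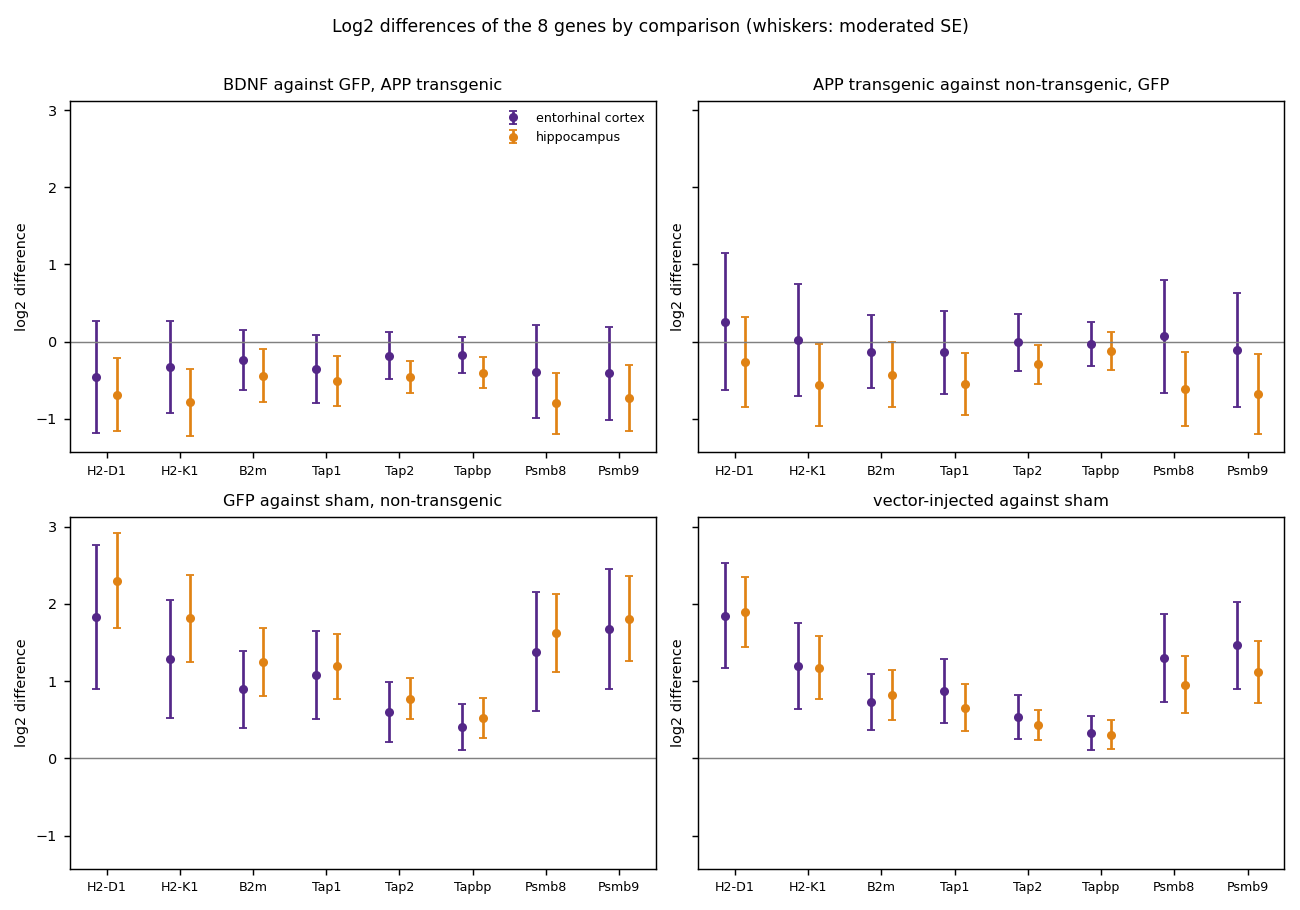
Log2 differences of the 8 genes in 4 comparisons, with moderated standard errors as whiskers, for the entorhinal cortex (purple) and the hippocampus (orange); above 0 is higher in the group named first. In both lower panels every gene lies above 0, up to 2.30 for H2-D1 with GFP against sham in the hippocampus, and in the upper left panel every gene lies below 0, with whiskers that cross 0 for all 8 genes in the entorhinal cortex.

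Few member probe sets passed the test between regions. The fit over all 26 arrays took them as independent. Arrays of the 2 regions may come from the same mice, and such a pairing was not modelled. The entorhinal cortex minus the hippocampus, averaged over the 4 groups, gave a median of -0.24 over the 8 genes against -0.023 over all probe sets. That median was 0.038 without entorhinal non-transgenic GFP array 2 and -0.47 without array 1 of the same group. Of 20 member probe sets 1 was called, where 48.6% of all probe sets were: the second probe set of Tapbp averaged 5.86 in the entorhinal cortex and 6.13 in the hippocampus (-0.27 ± 0.11, adjusted p = 0.047). The representative Tapbp probe set read 0.05 ± 0.13 higher in the entorhinal cortex (adjusted p = 0.801), so the probe sets of this gene disagreed. That call was lost in 17 of 26 fits that each left out 1 array, where 0 member probe sets were called. The response to injection, compared between the regions, differed by a median of 0.07 over the 8 genes, with 0 of 20 called and 0% of all probe sets called. Without single arrays that median ran from -0.11 (entorhinal non-transgenic GFP array 1 left out) to 0.42 (array 2 of that group left out).

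The 9 probe sets of H2-D1 did not read alike. The probe sets 1425614_x_at, 1427651_x_at and 1452544_x_at divided the 26 arrays into the same 14 high and 12 low ones, whereas the representative probe set 1451784_x_at did not. The suffix x_at marks probes that may also match other genes, here most of the H2-D1 and H2-K1 probe sets. On 1425614_x_at the low arrays read 3.78 to 4.62 and the high arrays 7.14 to 10.10, with nothing in the gap of 2.53 between them. The gaps were 1.84 on 1427651_x_at and 2.21 on 1452544_x_at. In each region the high arrays were 2 of 4 with BDNF and 2 of 4 with GFP among transgenic mice and 2 of 2 with GFP among non-transgenic mice, against 1 of 3 in sham mice. The count was thus 7 of 13 in both regions and the same in every group of both regions, and the array numbers of the high arrays differed between the regions. Entorhinal sham array 3 and hippocampal sham array 1 were high on these probe sets (7.14 and 7.29 on 1425614_x_at) while the mean of the 8 genes on them (7.78 and 8.06) was at the low end of the region. Within the high arrays the injected ones read 7.32 to 10.10, against 7.14 and 7.29 in sham mice.

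A second division appeared in the difference between H2-D1 1451784_x_at and H2-K1 1425336_x_at on the same array. It was below 0, at -1.09 to -0.21, on 12 arrays and above 0, at 0.16 to 0.79, on 14, and its sign has no meaning by itself because levels of different probe sets are not comparable. The same arrays were divided without overlap by some other probe sets, set against H2-K1 1425336_x_at in the same way. Since 1425336_x_at enters each difference and also set the classes, these divisions are not independent of each other. For H2-D1 1425545_x_at the difference was -1.25 to -0.28 on the 12 arrays and 0.21 to 0.84 on the other 14, and for H2-D1 1426324_at it was -5.16 to -4.05 and -3.76 to -3.05. The division also lay within H2-K1, whose probe set 1451931_x_at differed from 1425336_x_at by -1.09 to -0.37 on the 12 arrays and by -0.25 to 0.45 on the other 14. For all further H2-D1 and H2-K1 probe sets the 2 classes overlapped in this difference. Among them were H2-D1 1451683_x_at (-3.79 to -2.12 and -3.15 to -2.39) and H2-K1 1427746_x_at (-3.15 to -2.64 and -3.20 to -2.36). In each region the low class held 1 of 4 BDNF arrays and 1 of 4 GFP arrays of transgenic mice, 1 of 2 GFP arrays of non-transgenic mice and 3 of 3 sham arrays. The 6 injected arrays in it were BDNF array 3, transgenic GFP array 4 and non-transgenic GFP array 2 of the entorhinal cortex and BDNF array 4, transgenic GFP array 1 and non-transgenic GFP array 2 of the hippocampus. All sham arrays were in the low class, so for these probe sets the class and the sham treatment cannot be fully told apart. On H2-K1 1451931_x_at the injected arrays averaged 1.53 ± 0.58 above sham in the entorhinal cortex (adjusted p = 0.799) and 1.63 ± 0.43 in the hippocampus (adjusted p = 0.257). On H2-K1 1425336_x_at these differences were 1.20 ± 0.56 (adjusted p = 0.821) and 1.18 ± 0.41 (adjusted p = 0.373). Of the remaining probe sets, H2-K1 1451931_x_at ran from 8.58 to 12.16, 1427746_x_at from 6.27 to 9.58 and 1450534_x_at from 4.85 to 6.44 over the 26 arrays. H2-D1 1425545_x_at ran from 8.37 to 12.50, 1451683_x_at from 6.02 to 9.93 and 1426324_at from 4.62 to 9.02, while 1451934_at stayed between 4.26 and 4.76 and 1450170_x_at was below the filter. The 3 further low probe sets of Tap1 and the second one of Psmb8 were below it as well.

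**Figure D3:**
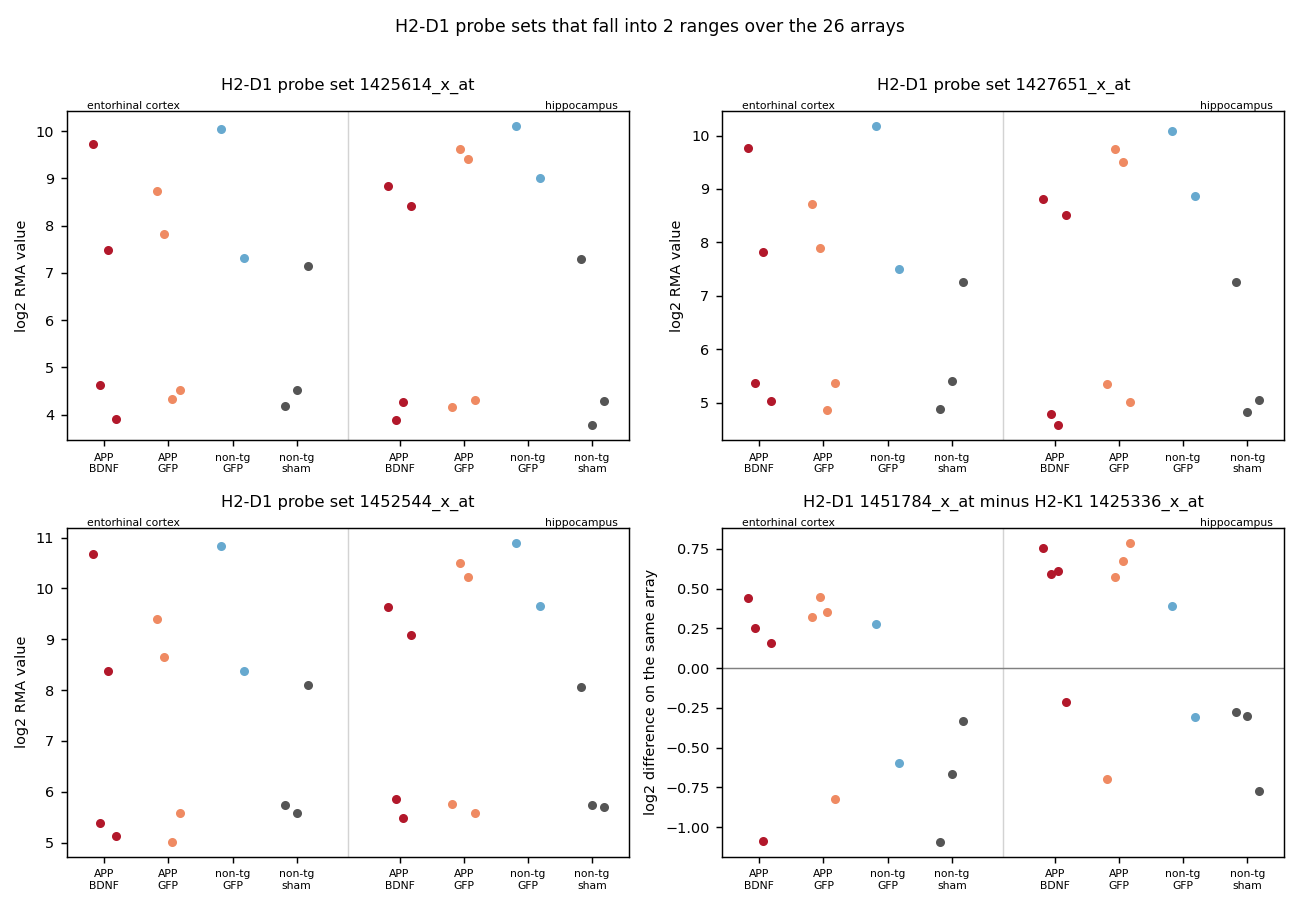
Log2 values of 3 H2-D1 probe sets on each array, and in the lower right panel the log2 difference between the representative probe sets of H2-D1 and H2-K1 on each array, by region and group as labelled. The points of the first 3 panels fall into a low and a high range with no array between them, for example 3.78 to 4.62 and 7.14 to 10.10 on 1425614_x_at, and all 6 sham arrays lie below 0 in the lower right panel.

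Other genes of the pathway differed from sham by less at the median. A list of 42 further class I genes, regulators and chaperones had 30 genes with a probe set, of which 27 were tested, and 0 were called in any of the 8 comparisons within a region. On injected against sham arrays 19 of 27 averaged higher in the entorhinal cortex (median 0.10) and 16 of 27 in the hippocampus (median 0.051). Nlrc5, the transactivator of class I genes, averaged 5.49 on injected hippocampal arrays, 1.34 ± 0.46 above sham (adjusted p = 0.371). H2-M3, a class I molecule that presents formylated peptides, averaged 0.75 ± 0.32 above sham in the entorhinal cortex (adjusted p = 0.813) and 0.60 ± 0.22 in the hippocampus (0.398 likewise). The proteasome activator Psme1 was 0.29 ± 0.14 and 0.21 ± 0.08 above sham in these regions (0.821 and 0.448), and the peptide trimming enzyme Erap1 was 0.42 ± 0.20 above sham in the entorhinal cortex (0.825). With BDNF against GFP in the hippocampus the smallest p of the list was that of the transcription factor Irf2 (-0.19 ± 0.07, adjusted p = 0.976).

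Between regions 4 of the 27 genes were called higher and 7 lower in the entorhinal cortex, where 48.6% of all probe sets were called, so the list was not called more often than the rest. The constitutive proteasome subunits Psmb7 (-0.76 ± 0.05, adjusted p = 9.89e-11) and Psmb5 (-0.40 ± 0.04, adjusted p = 1.80e-08) were lower there, as was the chaperone Calr (-0.28 ± 0.05, adjusted p = 0.000191). The interferon receptor subunits Ifngr2 (0.46 ± 0.12, adjusted p = 0.00211) and Ifnar1 (0.27 ± 0.05, adjusted p = 0.000159) were higher, and so were the tapasin-related Tapbpl (0.34 ± 0.10, adjusted p = 0.00745) and the third inducible proteasome subunit Psmb10 (0.23 ± 0.08, adjusted p = 0.0177).

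Interferon-induced genes were high on the same arrays as the class I genes. Of a list of 22 genes, 19 were tested and 0 were called within a region. On injected against sham arrays 18 of 19 averaged higher in the entorhinal cortex (median 0.39) and 19 of 19 in the hippocampus (median 0.28), led by p by Ifit2 (0.56 ± 0.22, adjusted p = 0.810) and Irgm1 (1.17 ± 0.44, adjusted p = 0.418). With BDNF against GFP 16 of 19 averaged lower in the entorhinal cortex (median -0.22) and 18 of 19 in the hippocampus (median -0.64), where Ifit3 (-0.88 ± 0.36, adjusted p = 0.976) had the smallest p. Between regions Ifit2 was higher in the entorhinal cortex (0.33 ± 0.13, adjusted p = 0.0478) and Ifi27 was lower (-0.43 ± 0.12, adjusted p = 0.00709). The genes outside the 8 whose pattern over the 26 arrays, centred within each region, was most like the mean of the standardised 8 were the interferon-inducible GTPases Gbp6 (Pearson r = 0.987), Gbp2 (0.986), Iigp1 (0.985), Irgm1 (0.984), Gm4951 (0.979), Igtp (0.978), Gbp7 (0.975) and Gbp8 (0.973), the checkpoint ligand Cd274 (0.977) and Nlrc5 (0.972). The 8 genes themselves had r between 0.896 (H2-D1) and 0.988 (Psmb9) with that mean. These correlations are a description: entorhinal and hippocampal arrays may come from the same mice, the groups differ in both measures, and the genes were chosen by r.

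MHC class II genes were high on the arrays where class I genes were high, B and plasma cell genes on some of them, and their part in the result was not tested. The mean of the 4 MHC class II genes (H2-Aa, H2-Ab1, H2-Eb1 and Cd74), which antigen-presenting cells use to show peptides to CD4 T cells, ran from 6.96 to 10.82 with BDNF and from 8.38 to 11.40 with GFP in transgenic entorhinal cortex and reached 7.77 and 11.29 in non-transgenic GFP mice, against 6.74 to 7.19 in sham mice. In the hippocampus it ran from 6.19 to 9.36 with BDNF and from 6.17 to 10.42 with GFP in transgenic mice and was 9.70 and 11.27 in non-transgenic GFP mice, against 5.92 to 6.26 in sham mice. All 4 class II genes averaged higher on injected than on sham arrays in both regions, with medians of 2.25 and 3.06, and 0 were called. The mean of 5 tested B and plasma cell genes of 8 listed reached 6.07 with BDNF and 9.11 with GFP in transgenic entorhinal cortex and 9.13 in non-transgenic GFP mice, against at most 4.99 in sham mice. On entorhinal BDNF array 1, the third highest of its region in the class I mean, it was 5.85, below transgenic GFP arrays 1 and 3 (6.51 and 6.48). The highest hippocampal values were 5.90, 8.37 and 8.20 in those groups, against 5.06 in sham mice.

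The means of T cell genes (9 tested of 12 listed) and microglial genes (7 of 8) spanned less. Single T cell genes differed in this. In the entorhinal cortex Ccl5 ran from 5.20 to 10.28 and Nkg7 from 4.40 to 6.38, while Cd8a stayed between 5.49 and 5.92 and Cd4 between 5.90 and 6.30. The T cell mean ran from 5.44 to 6.003 with BDNF and from 5.61 to 6.68 with GFP in transgenic entorhinal cortex and was 5.68 and 6.47 in non-transgenic GFP mice, against 5.45 to 5.60 in sham mice. The microglial mean ran from 8.05 to 8.61, from 8.21 to 8.65 and over 8.02 and 8.58 in the same 3 groups, against 8.12 to 8.18 in sham mice. In the hippocampus the T cell mean ran from 5.52 to 5.87 with BDNF and from 5.51 to 6.03 with GFP in transgenic mice and was 5.77 and 6.32 in non-transgenic GFP mice, against 5.47 to 5.59 in sham mice. Endothelial genes did not share this pattern, with 7.91 to 8.08, 7.85 to 7.98 and 7.80 to 7.87 in the 3 injected entorhinal groups, against 7.999 to 8.18 in sham mice. By their means over all arrays, the T cell genes Cd3g and Cd8b1, the B cell gene Cd79b and the neutrophil genes S100a8 and S100a9 were below the filter. Cd3g still ran from 3.32 to 6.41 in the entorhinal cortex. Of the monocyte and neutrophil list, Lyz2 ran from 6.63 to 9.85 there, and Ccr2 from 5.73 to 6.19. Their mean was highest on entorhinal transgenic GFP array 4 (7.90), BDNF array 1 (7.75) and non-transgenic GFP array 1 (7.67). No gene of these lists, nor of the monocyte, meningeal, choroid plexus, astrocyte, oligodendrocyte and neuronal lists, was called in a comparison within a region.

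**Figure D4:**
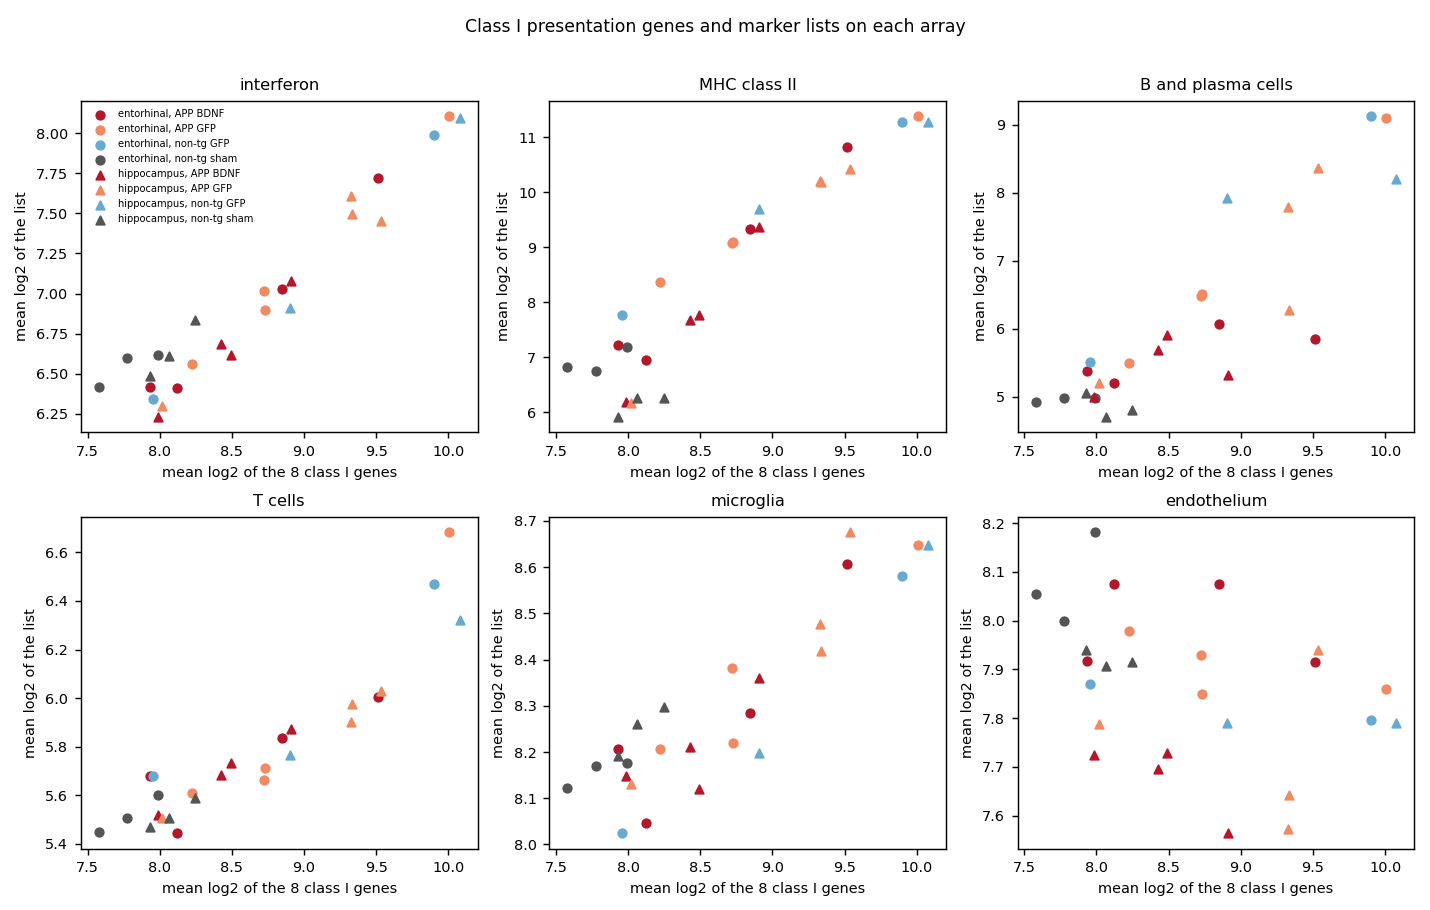
Mean log2 value of 6 gene lists (vertical axes) against the mean log2 value of the 8 class I genes (horizontal axes) on each of the 26 arrays, with circles for the entorhinal cortex, triangles for the hippocampus and colours for the groups. Class II genes reach 11.40 on the entorhinal transgenic GFP array with the class I mean of 10.005, and lie between 5.92 and 7.19 on the sham arrays, whose points gather at the lower left of all panels but the endothelial one.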

How the data were processed

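RNA of 26 samples, 13 from each region, was hybridised to Affymetrix mouse arrays, 1 sample per array. The values are log2 expression values per probe set deposited by the authors, made with RMA per the submitters' processing notes. RMA corrects background, brings all arrays to a common distribution and summarises the probes of a set. No RMA version is named in the sources used here. The number of arrays limits the precision. The table had no missing values and no pair of identical arrays.

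Probe sets were named from the platform annotation, with symbols updated by Entrez ID: 34958 carried 1 symbol, 932 carried more than 1 and 9211 were not listed. Another 3 probe sets that join a member with a further gene were not used. Probe sets with a mean at or above the 30th percentile (log2 4.33) were tested in R 4.3.3 with the limma package, version 3.58.1 (lmFit, then eBayes, two-sided, no covariates). A fit per region held its 4 groups and gave 4 comparisons, and a fit over all 26 arrays gave 3 more. The virus-injected mean is the mean of the 3 group means. Adjusted p-values are Benjamini-Hochberg values over all 31571 tested probe sets, and a probe set was called under 0.05. Errors of differences are limma's moderated standard errors. The fit was tested on simulated data with known changes.

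The members and lists were chosen with earlier results of these data known. The 20 of 25 probe sets of the 8 genes that passed the filter entered the counts, and the others are named or counted as below it. Of the pathway and interferon lists, the text draws on up to 6 called probe sets per direction and comparison with the largest change, or the 3 with the smallest p where none was called, and on the 10 genes most like the members' mean. Alternatives were no filter and a stricter one, 1 probe set per gene, renewed quantile normalization, median centring, array weights, an Xist covariate, trend and robust options of eBayes, the 10 injected arrays as 1 group, a replicate block, only the groups compared, a joint fit of all arrays, and leaving out each array. Promoter windows came from RefSeq's GRCm38.p6 table.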

Additional observations from a re-analysis of the deposited data

Results flagged for a closer look

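In hippocampal transgenic GFP mice, array 4 stood apart from the other 3 arrays in H2-K1, at 9.50, with a gap to the nearest array that was 0.943 of the group's range. The mean of the 8 genes on that array was 8.02, with a gap of 0.864 of the range. Both exceed Dixon's critical value of 0.829 for 4 samples. In all, 36 such tests were made, for the 8 genes and their mean in the 4 groups of 4 arrays, and chance marks about 1 in 20. The array was also at the low end of its group for MHC class II genes (6.17) and for B and plasma cell genes (5.21), and the part of those cells in its class I level was not tested. Without it, the median difference of the 8 genes between BDNF and GFP in transgenic hippocampus was -0.95.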

How the results depend on the processing

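Of 2432 values of the 8 genes under the alternatives, 117 changed sign, 0 lost a call and 6 gained one, all between regions (5 of Tap2 and 1 of H2-D1, smallest adjusted p 0.0134). For injection against sham, 0 of 392 values changed sign, against 9 of 392 for BDNF, 1 of 392 for GFP against sham and 41 of 392 for the transgene. The causes were not tested. The counts below are called probe sets of all genes unless members are named. With no filter, median centring, an Xist covariate or only the groups compared, entorhinal GFP against sham gave 2, where 4 were called. Entorhinal injection against sham gave 8 with 1 probe set per gene, 30 with array weights, 6 with the Xist covariate and 26 with all arrays in 1 fit, against 16. Hippocampal injection against sham gave 11, 143 and 51 with 1 probe set per gene, array weights and all arrays in 1 fit, against 26. Hippocampal GFP against sham gave 5 with 1 probe set per gene, 20 with all arrays and 60, of which 1 was a member, with only the groups compared, against 10. The transgene count was 1 with the Xist covariate in either region, 1 with 1 probe set per gene and 4 with all arrays in the hippocampus, against 2. Between regions 7746 were called with 1 probe set per gene, against 15351, and the member count was 0 with no filter, 1 probe set per gene, renewed quantile normalization or centring, and 2 with array weights, against 1. Array weights called 1 probe set for the region difference of injection.

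For the transgene in the entorhinal cortex, Tap2 was 0.00083 after centring, Psmb8 -0.014 and H2-K1 -0.078 with array weights. With the Xist covariate, Tap1 was 0.22, Tapbp 0.16, B2m 0.21, Psmb9 0.36 and Tap2 0.24, and hippocampal H2-D1 was 0.091. The region difference of injection was -0.0053 for Tapbp after renewed quantile normalization and 0.043 for H2-D1 with array weights, and B2m between regions was -0.0032 with array weights. An alternative chosen after seeing the data left out both entorhinal arrays low in myelin genes. It gave 0.16 for H2-D1 with BDNF, and for the transgene a count of 1, a median of -0.98 and values of -1.20 for Psmb8, -1.06 for H2-K1 and -1.26 for H2-D1. The median of entorhinal GFP against sham was then 2.11. Between regions 0 members were called, and Tap1 was 0.010, Psmb8 0.099, H2-K1 0.082 and Psmb9 0.25. The region difference of injection was 0.20 for B2m and 0.67 for H2-D1.

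With the replicate number as a block, 0 member probe sets were called in any comparison, the region comparison included, and the count was 1 for the transgene in either region, 9 for entorhinal injection and 0 for hippocampal GFP against sham. The transgene values were then -0.17 for Psmb8 and -0.21 for H2-K1 in the entorhinal cortex and 0.085 for H2-D1 in the hippocampus. The median over the 8 genes was 0.82 for entorhinal and 0.97 for hippocampal injection. Samples that share a number did not deviate together (correlations of 0.068 to 0.151 in the entorhinal cortex and -0.311 to -0.046 in the hippocampus, highest for the own number in 2 of 8 cases), so the numbers are not taken as pairs.

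Leaving out each array in turn gave these ranges. Counts ran from 1 to 3 for entorhinal GFP against sham, 6 to 17 for injection and 1 to 3 for the transgene. In the hippocampus they ran from 2 to 36 for GFP against sham (0 to 1 members), 13 to 54 for injection, 1 to 6 for the transgene and 0 to 2 for BDNF. Between regions 0 to 4 members were called, and 0 to 4 probe sets for the region difference of injection. With BDNF in the entorhinal cortex, H2-D1 ran from -1.01 to 0.16, H2-K1 from -0.70 to 0.18, B2m from -0.50 to 0.063, Tap1 from -0.63 to 0.079, Tap2 from -0.39 to 0.064, Tapbp from -0.30 to 0.013, Psmb8 from -0.75 to 0.12 and Psmb9 from -0.74 to 0.097. For the transgene there, the median ran from -0.98 to 0.87, H2-D1 from -1.26 to 1.78, H2-K1 from -1.06 to 1.11, B2m from -0.87 to 0.60, Tap1 from -0.90 to 0.63, Tap2 from -0.60 to 0.58, Tapbp from -0.51 to 0.46, Psmb8 from -1.20 to 1.33 and Psmb9 from -1.43 to 1.21. In the hippocampus the transgene median ran from -1.06 to 0.13, H2-D1 from -1.08 to 0.55, Tap1 from -1.24 to 0.15, Tap2 from -0.84 to 0.25, Tapbp from -0.60 to 0.35, Psmb8 from -1.22 to 0.0029 and Psmb9 from -1.46 to 0.11. The median for GFP against sham ran from 0.18 to 2.11 in the entorhinal cortex (Tapbp from -0.084 to 0.89) and from 0.99 to 2.06 in the hippocampus. Between regions the median ran from -0.47 to 0.038, B2m from -0.15 to 0.21, Tapbp from -0.075 to 0.17, Psmb8 from -0.57 to 0.064, H2-K1 from -0.53 to 0.012 and Psmb9 from -0.45 to 0.21. The region difference of BDNF ran from 0.017 to 0.61 for the median, -0.12 to 0.59 for Tap1, -0.061 to 0.62 for B2m, -0.014 to 0.83 for Psmb9 and -0.32 to 0.85 for H2-D1. That of injection ran from -0.11 to 0.42 for the median, -0.14 to 0.18 for Tapbp, -0.34 to 0.39 for H2-K1, -0.56 to 0.46 for H2-D1, -0.035 to 0.47 for Tap1, -0.079 to 0.76 for Psmb8, -0.089 to 0.79 for Psmb9, -0.084 to 0.31 for Tap2 and -0.34 to 0.15 for B2m. The 2 arrays of the non-transgenic GFP group limit the precision of each comparison that uses it.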

Other observations

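The 14 arrays that were high on the 3 H2-D1 probe sets were also set apart by 1 probe set of another gene among all 45101, that of Ccr6, a chemokine receptor gene on chromosome 17, with a gap of 0.19 on the log2 scale. Among the 20 virus-injected arrays, the 6 in the low class of the H2-D1 to H2-K1 difference were set apart by 7 probe sets, of which 5 lie on chromosome 17. Of these, 2 belong to the heat shock gene Hspa1b, higher on the 6 arrays with gaps of 0.17 and 0.13, and 1 to Neu1, a sialidase gene, with a gap of 0.10. Both genes, like H2-D1 and H2-K1, lie on chromosome 17. The 6 sham arrays, also in the low class, were not part of this search. On the Hspa1b probe set with the gap of 0.17 they read 6.08 to 6.83. The 6 injected low-class arrays read 7.43 to 8.20 there, and the other injected arrays 5.43 to 7.26. On the second Hspa1b probe set the sham arrays read 6.59 to 7.44, against 7.87 to 8.54 and 5.89 to 7.74. Hspa1b thus did not set apart the low class with its sham arrays included. The remaining gaps, of Slc25a41, Rcan2, Asb18 and an unnamed probe set, were at most 0.0098. The search took all 45101 probe sets, without the filter at 4.33. Asb18 read 3.28 to 3.92, and Neu1 (3.85 to 4.82) and Slc25a41 (3.46 to 4.54) ran from below to above that level. The share of chromosome 17 among all probe sets was not determined, nor how many probe sets would divide the arrays so by chance. The count on chromosome 17 is therefore not read as an excess. This search was chosen after the divisions had been seen, has no test, and its cause was not tested.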
